A study of Mus musculus with 6 samples.

Results

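Genes of the transforming growth factor beta (TGF-beta) superfamily were followed through 6 single-cell RNA libraries from a study of dendritic cells (DCs) in mouse wound healing. The 9 genes, taken by symbol for their place in the pathway and with earlier results of these data known, were the ligand genes Tgfb1, Tgfb2, Tgfb3, Inhba and Gdf15, the receptor genes Tgfbr1, Tgfbr2 and Tgfbr3, and Ltbp1, of 31053 genes counted. All 9 had unique molecular identifiers (UMIs, each 1 captured RNA molecule) in every library. They were described in the 35083 cells that passed the filter of the study as read here (300 genes or more, taken for its minimum of unique transcripts, fewer than 100000 UMIs, mitochondrial share below 10%), of which 24051 came from DC cultures and 11032 from wounds.

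TGF-beta proteins are secreted in a latent form, still wrapped in their own propeptide, and latent TGF-beta binding proteins such as that of Ltbp1 tether the complex to the extracellular matrix until integrins, proteases or thrombospondin release the ligand. The free ligand binds the receptor of Tgfbr2, which recruits and phosphorylates the receptor of Tgfbr1, and the signal passes to the nucleus through Smad proteins. Betaglycan, the product of Tgfbr3, presents ligand to these receptors. Inhba encodes the subunit of activin A, which uses activin receptors and is bound by follistatin, and Gdf15 encodes a distant, stress-induced member that acts through a receptor of the brainstem. In wounds the pathway is known for matrix formation by fibroblasts, for the recruitment of myeloid cells and, through activin, for granulation tissue.

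The DC cultures were mouse bone marrow cells grown with GM-CSF that were left untreated, exposed to vitamin D3 (VD3) at 1e-06 M for 24 h, or made deficient in Ndrg2 with nucleofected Cas9 and guides (Ndrg2-KO DCs). The wounds were splinted excisional skin wounds of C57BL/6J mice aged 6 weeks, covered with a pullulan-collagen hydrogel that held control DCs, Ndrg2-KO DCs or no cells (blank hydrogel), and were explanted on day 10. Each condition gave 1 library, and the wounds came from several mice per group whose way into 1 library is not given in the sources used here, so that no value has a replicate and no condition was tested against another. The untreated DCs were not nucleofected, and the loss of Ndrg2 and nucleofection cannot be told apart in the Ndrg2-KO DC library. The labels call the control DCs of the wounds untreated, whereas the methods describe guides without a target for control cells, and nothing in the wound libraries marks a cell as host or seeded. GEO's design text speaks of GFP+ cells sorted from parabionts, whereas the methods describe whole wound tissue, as taken here, and a sort would change what the shares of cell types and the levels over a whole wound stand for.

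Levels are given as counts per 1000000 UMIs (CPM) over the summed cells of a library or cell type, with exact Poisson 95% intervals in square brackets, and ratios of 2 sums as log2 values with exact conditional binomial 95% intervals. Shares of cells with a UMI have exact Clopper-Pearson intervals and were taken after cells were drawn down to 2000 UMIs in the DC libraries or 1000 UMIs in the wound libraries. Shallower cells were left out of the shares, namely 472 cells of the untreated, 1149 of the VD3 and 134 of the Ndrg2-KO culture, and 25, 95 and 65 cells of the control, Ndrg2-KO and blank wounds. All of these intervals cover counting error only, not the spread between cultures or animals. A gene was counted as different where 2 sums with at least 50 UMIs of it together differed by at least 2-fold, and the share of all genes that did so is given beside each count. Since the genes were chosen with earlier results of these data known, a count set beside this share is a description only. Since the libraries end at the 3′ ends of transcripts and were not scaled by length, values were compared between samples and not between genes. In these sums, fewer expressing cells and less RNA per cell cannot be told apart. Where the cells with the most UMIs of a gene were left out, they were 5 in every sum, a larger part of a sum with fewer cells.

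The libraries held 1948 to 8825 kept cells with medians of 12089 to 16316 UMIs in the DC cultures and 4415 to 10795 UMIs in the wounds, and a pair of libraries shared at most 19 cell barcodes. Untreated DCs had 4.62 CPM of Ndrg2, VD3 stimulated DCs 1.42 CPM and Ndrg2-KO DCs 0.884 CPM, and small insertions or deletions are not seen in 3′ counts. The DC markers Itgax (146, 77.8 and 263 CPM, in the same order) and H2-Ab1 (908, 561 and 487 CPM) were present in all 3 cultures, but the clusters also held macrophage-like, granulocyte- or monocyte-like and proliferating cells. Cell types were rebuilt by clustering without the 9 genes and are called by a type only where markers chosen for that type led, so they may differ from those of the study. Scrublet marked at most 0.873% of a library as doublets, too few for its calls to be relied on, and doublets were kept.

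Gdf15 (ENSMUSG00000038508, chromosome 8, 70629393 to 70632456, minus strand of GRCm38) had the largest ratio of the 9 genes between the VD3 and untreated cultures. It was counted at 6.84 CPM [6.40, 7.30] in untreated DCs (907 UMIs), 246 CPM [244, 249] in VD3 stimulated DCs (28699 UMIs) and 5.66 CPM [5.28, 6.06] in Ndrg2-KO DCs (813 UMIs). The VD3 culture thus stood apart from both others, at 36.0 times the untreated level, a log2 ratio of 5.17 [5.08, 5.27]. The log2 ratio was 3.99 over cells under 5% mitochondrial UMIs and 4.35 as a mean over cells. A Gdf15 UMI was found in 21.1% [20.2, 22.0] of VD3 stimulated DCs, in 1.15% [0.910, 1.43] of untreated DCs and in 0.817% [0.630, 1.04] of Ndrg2-KO DCs at equal depth. Without drawing cells down, these shares were 35.8%, 6.09% and 4.86%.

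The sequences upstream of the Gdf15, Inhba and Tgfb2 starts are shown because these ligand genes differed at least 2-fold between cultures or wounds. Each run is the 250 bases before a transcript start in RefSeq (GRCm38.p6), written 5′ to 3′ along the gene. Capitals mark the E-box letters CACGTG and the TATA box letters TATAAA, both searched on either strand. The Gdf15 run is chr8:70632457-70632706 on the minus strand, before the start at 70632456, the Inhba run is chr13:16011601-16011850 on the plus strand, before the start at 16011851, and the Tgfb2 run is chr1:186705990-186706239 on the minus strand, before the start at 186705989.
Gdf15: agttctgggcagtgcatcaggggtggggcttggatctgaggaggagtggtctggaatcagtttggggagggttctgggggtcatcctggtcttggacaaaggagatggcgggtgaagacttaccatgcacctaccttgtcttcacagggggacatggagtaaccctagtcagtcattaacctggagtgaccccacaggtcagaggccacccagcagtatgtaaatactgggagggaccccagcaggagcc
Inhba: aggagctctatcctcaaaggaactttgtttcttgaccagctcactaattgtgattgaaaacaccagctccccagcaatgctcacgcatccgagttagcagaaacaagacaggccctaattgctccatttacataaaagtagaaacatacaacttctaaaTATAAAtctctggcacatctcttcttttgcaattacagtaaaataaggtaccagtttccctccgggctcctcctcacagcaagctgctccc
Tgfb2: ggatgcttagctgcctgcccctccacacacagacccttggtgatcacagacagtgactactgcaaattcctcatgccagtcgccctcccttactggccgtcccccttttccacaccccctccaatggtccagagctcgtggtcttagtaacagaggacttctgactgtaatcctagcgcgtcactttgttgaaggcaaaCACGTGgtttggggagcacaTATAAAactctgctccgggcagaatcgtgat

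The Inhba run held TATAAA from 91 bases before the start. The Tgfb2 run held CACGTG from 51 and TATAAA from 31 bases before its start. The Gdf15 run held none of the searched letters, while the run before a downstream Gdf15 start at 70632095 held CACGTG from 83 bases before it, and the 3′ libraries do not tell which start was used. The windows searched ran from 250 bases before to 50 after a start, and there were 10 of them for 7 of the 9 genes, none being given for Tgfb3 and Tgfbr3. Of all 32851 such windows, 13.6% held TATAAA and 7.15% held CACGTG. The cAMP response element TGACGTCA, in 1.79% of all windows, was found at 1 member start, that of Ltbp1 at 75005529. The AP-1 letters TGANTCA (7.81% of all windows), the Smad palindrome GTCTAGAC (0.213%) and the DR3 repeat that the vitamin D receptor is known to bind (0.00609%) were found in none of the member windows.

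**Figure D1:**
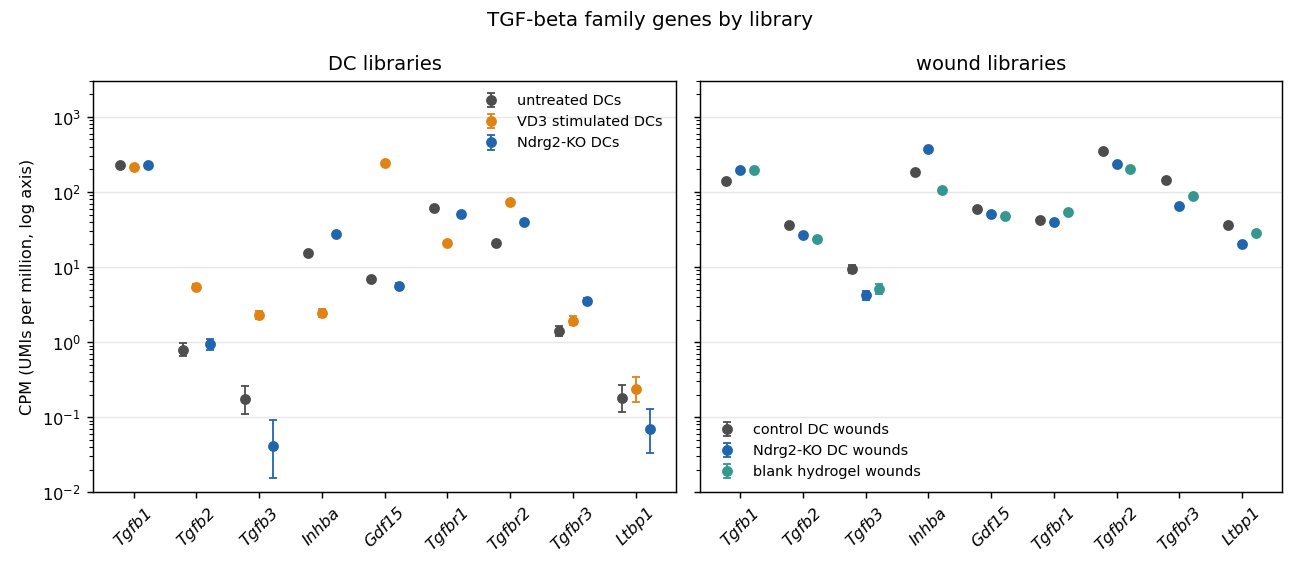
Level of each of the 9 genes in the 3 DC cultures (left panel) and the 3 wounds (right panel), in CPM on a log axis, with points for single libraries and bars for 95% Poisson intervals of counting error. Gdf15 stands at 246 CPM in VD3 stimulated DCs against 6.84 and 5.66 CPM in the other cultures, and Inhba at 378 CPM in the Ndrg2-KO DC wound against 186 and 106 CPM in the other wounds.

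Within the VD3 culture, Gdf15 was highest in cluster 8, a macrophage-like cluster led by Ms4a7 and Ccl4, at 651 CPM. It was 419 CPM in cluster 7, which was led by the granule genes Elane, Prtn3 and Mpo and stayed unnamed, 303 CPM in cluster 15 (cDC1-like cells) and 254 CPM in cluster 14, which was led by Cpm and Ms4a7. Mature DC-like cells of cluster 1 had 19.0 CPM. These levels show a Gdf15 signal spread over several cell states of the VD3 culture and lowest in the mature DC-like ones. At equal depth, 59.5% of the cells of cluster 8, 44.2% of cluster 7 and 2.99% of cluster 1 had a Gdf15 UMI, where cluster 8 had a median of 15198 and cluster 1 of 13676 UMIs per cell.

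Gdf15 was also counted at higher levels in the VD3 than in the untreated culture within cell types that both held, at levels below that of the whole VD3 culture in mature DC-like and granulocyte- or monocyte-like cells, and the part of free RNA in these counts was not tested. In mature DC-like cells the level was 0.551 CPM in untreated (23 UMIs) and 18.8 CPM in VD3 stimulated cultures (946 UMIs), a log2 ratio of 5.09 [4.50, 5.76], and 1.02 CPM in the Ndrg2-KO culture. In cDC1-like cells, 0 UMIs were counted in the untreated culture (77 cells), which against a floor of 3 UMIs puts the VD3 level of 303 CPM (608 UMIs in 150 cells) at least 110-fold higher. In the granulocyte- or monocyte-like cells of cluster 4 the levels were 43.8 CPM untreated and 93.8 CPM with VD3, a log2 ratio of 1.10 [0.85, 1.35] that was 0.04 over cells under 5% mitochondrial UMIs. Most of the mature cells of the 3 cultures fell into separate clusters, cluster 1 for VD3, cluster 2 for untreated and cluster 5 for Ndrg2-KO cells.

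Inhba (ENSMUSG00000041324, chromosome 13, 16011851 to 16031621, plus strand), the activin subunit gene, was lowest in the VD3 culture. Its level was 15.4 CPM [14.8, 16.1] in untreated DCs (2045 UMIs), 2.43 CPM [2.16, 2.73] in VD3 stimulated DCs (283 UMIs) and 27.3 CPM [26.5, 28.2] in Ndrg2-KO DCs (3924 UMIs). The log2 ratio of VD3 to untreated was -2.67 [-2.85, -2.49], and was -1.58 over cells under 5% mitochondrial UMIs and -1.90 as a mean over cells. The log2 ratio of Ndrg2-KO to untreated was 0.82 [0.75, 0.90], short of 2-fold, and was 0.14 over cells under 5% mitochondrial UMIs. In untreated DCs the highest Inhba levels were in cluster 9, macrophage-like cells led by Plet1 and Mgl2 (45.5 CPM), and in cluster 4 (34.3 CPM), and the mature cells of cluster 2 had 2.28 CPM. In Ndrg2-KO DCs they were in cluster 10, which held proliferating cells (38.9 CPM), and in cluster 0, led by Arg1, Retnla and Mmp13 (34.0 CPM). In mature DC-like cells the order of the cultures was another one, with 2.54 CPM untreated, 0.496 CPM with VD3 and 1.80 CPM in Ndrg2-KO cells, where the last log2 ratio to untreated was -0.49 [-1.03, 0.02] and -1.37 under 5% mitochondrial UMIs.

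Tgfb1 (ENSMUSG00000002603, chromosome 7, 25687002 to 25705077, plus strand), the TGF-beta gene of immune cells, was close to level across the cultures, with 226 CPM [223, 228] in the untreated, 216 CPM [213, 218] in the VD3 and 231 CPM [228, 233] in the Ndrg2-KO culture. The log2 ratio to untreated was -0.07 [-0.09, -0.04] for VD3 and 0.03 [0.01, 0.05] for Ndrg2-KO, and the sign of the VD3 value depended on the scaling, being 0.01 with median-ratio scaling and 0.08 as a mean over cells. Mature DC-like cells had less Tgfb1 than the culture as a whole in all 3 libraries, at 50 CPM untreated, 73.7 CPM with VD3 and 109 CPM in Ndrg2-KO cells. Within these cells the log2 ratio to untreated was 0.56 [0.48, 0.64] for VD3 and 1.12 [1.04, 1.21] for Ndrg2-KO, the latter being 0.92 with median-ratio scaling. The highest Tgfb1 level was in macrophage-like cluster 8 of the VD3 culture, at 407 CPM.

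Tgfb2 (ENSMUSG00000039239, chromosome 1, 186622792 to 186705989, minus strand) and Tgfb3 (ENSMUSG00000021253, chromosome 12, 86056745 to 86079041, minus strand) were counted at low levels, most of them in the VD3 culture. Tgfb2 had 0.792 CPM [0.648, 0.959] untreated (105 UMIs), 5.50 CPM [5.08, 5.94] with VD3 (640 UMIs) and 0.933 CPM [0.782, 1.10] in Ndrg2-KO DCs (134 UMIs). The log2 ratio of VD3 to untreated was 2.79 [2.49, 3.11], and was 2.19 under 5% mitochondrial UMIs and 1.98 as a mean over cells. Tgfb3 had 0.173 CPM [0.110, 0.260] untreated (23 UMIs), 2.33 CPM [2.06, 2.62] with VD3 (271 UMIs) and 0.0418 CPM [0.0153, 0.0909] in Ndrg2-KO DCs (6 UMIs). Its log2 ratio of VD3 to untreated was 3.75 [3.13, 4.43], and was 2.36 under 5% mitochondrial UMIs and 3.11 as a mean over cells. The VD3 intervals of both genes lay above those of the other cultures, but in different cells. Tgfb2 was highest in mature DC-like cluster 1 (9.19 CPM, 454 UMIs), where Tgfb3 had 0.101 CPM, and Tgfb3 was highest in clusters 7 (5.52 CPM, 146 UMIs) and 15 (5.48 CPM), with 4.22 CPM in cluster 8 (81 UMIs). An antisense gene, Gm29491, overlaps exons of Tgfb2 and was counted apart from it.

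The receptor genes differed between cultures in opposite directions. Tgfbr1 (ENSMUSG00000007613, chromosome 4, 47353222 to 47414931, plus strand), the kinase that passes the signal on, had 60.2 CPM untreated, 21.1 CPM with VD3 and 51.1 CPM in Ndrg2-KO DCs. Tgfbr2 (ENSMUSG00000032440, chromosome 9, 116084293 to 116175360, minus strand), the receptor that binds ligand first, had 20.6, 74.0 and 39.7 CPM in the same order. VD3 stimulated DCs were thus lowest for the former and highest for the latter, with log2 ratios to untreated of -1.51 [-1.58, -1.45] and 1.84 [1.78, 1.90]. The shares of cells with a UMI at equal depth had the same order, with 9.90%, 4.34% and 9.41% for Tgfbr1 and 3.96%, 11.8% and 7.20% for Tgfbr2.

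Both receptor differences were present inside the mature DC-like cells. Tgfbr1 had 39.5 CPM untreated, 18.4 CPM with VD3 and 36.6 CPM in Ndrg2-KO cells, and Tgfbr2 had 2.61, 13.8 and 7.40 CPM, a log2 ratio of VD3 to untreated of 2.40 [2.11, 2.71] and of Ndrg2-KO to untreated of 1.5 [1.16, 1.86]. In cluster 4 Tgfbr1 had 76.6 CPM untreated and 35.8 CPM with VD3, and Tgfbr2 42 and 87.2 CPM, a log2 ratio of 1.05 that was 0.68 under 5% mitochondrial UMIs. In all 3 cultures Tgfbr2 was lower in mature cells than in macrophage-like or Arg1-led clusters, with 14.0 CPM in cluster 1 against 162 CPM in cluster 8 of the VD3 culture and 2.55 CPM in cluster 2 against 31.8 CPM in cluster 9 of the untreated one, and 7.57 CPM in cluster 5 against 47.3 CPM in the Arg1-led cluster 0 of the Ndrg2-KO culture. Tgfbr3 (ENSMUSG00000029287, chromosome 5, 107106570 to 107289629, minus strand), the co-receptor, was sparse, with 1.41 CPM [1.22, 1.63] untreated, 1.93 CPM [1.69, 2.20] with VD3 and 3.53 CPM [3.23, 3.85] in Ndrg2-KO DCs. Its log2 ratio of Ndrg2-KO to untreated was 1.32 [1.08, 1.57], and its ratio of VD3 to untreated, 0.45 [0.17, 0.74], turned to -0.36 under 5% mitochondrial UMIs.

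Ltbp1 (ENSMUSG00000001870, chromosome 17, 75005568 to 75392512, plus strand), the matrix anchor of the latent complex, had few UMIs in the cultures, with 24 UMIs in untreated, 28 in VD3 stimulated and 10 in Ndrg2-KO DCs. Of these, 12 of the untreated and 21 of the VD3 UMIs lay in the small basophil-like cluster 16. A difference of Ltbp1 between VD3 stimulated and untreated DCs was not detectable at this depth (a log2 ratio of 0.41 [-0.43, 1.26]), and the Ndrg2-KO level of 0.0696 CPM [0.0334, 0.128] lay below the VD3 level of 0.240 CPM [0.160, 0.347] on these few UMIs.

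Between VD3 stimulated and untreated DCs, 6 of the 9 members differed at least 2-fold (Tgfb2, Tgfb3, Tgfbr2 and Gdf15 higher, Tgfbr1 and Inhba lower), against 11.6% of all 13113 genes with enough UMIs. The members' median log2 ratio was 0.45 and that of all genes -0.08. Between Ndrg2-KO and untreated DCs, 1 of 7 members did so (Tgfbr3), against 19.5% of all genes, with medians of 0.24 and -0.06. Between Ndrg2-KO and VD3 stimulated DCs it was 5 of 8 members, against 22.2%, with Gdf15 lower by a log2 ratio of -5.44 [-5.55, -5.34] and Inhba higher by 3.49 [3.32, 3.67]. These comparisons share libraries and are no separate support for each other. Within mature DC-like cells, 5 of 6 members differed between VD3 and untreated cultures, against 8.02% of all genes, and 3 of 6 between Ndrg2-KO and untreated cultures (Tgfb1, Tgfbr2 and Tgfbr3 higher), against 14.2%. In the granulocyte- or monocyte-like cells 3 of 5 members differed between VD3 and untreated cultures, against 4.03%.

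Of 62 other genes of the pathway, 43 had enough UMIs in the VD3 and untreated cultures, and 1 was at least 2-fold higher and 10 at least 2-fold lower with VD3, against 11.6% of all genes either way, with a median log2 ratio of -0.31. The higher gene was Ltbp2, another matrix protein of the latent TGF-beta binding family, at 4.46 CPM with VD3 and 1.37 CPM untreated (1.70 [1.46, 1.95]). Among the lower ones were Fst, the gene of follistatin, at 0.429 and 2.85 CPM, the endothelial receptor gene Acvrl1 at 3.01 and 10.2 CPM, the matrix target Tgfbi at 79.6 and 247 CPM, and Id3, a target of bone morphogenetic protein signals, at 33.6 and 81.5 CPM. By role, 3 of 4 antagonists and 4 of 7 targets were lower with VD3, while none of the 13 Smad and Smad-regulating genes moved by 2-fold.

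In the Ndrg2-KO culture 12 of 46 pathway genes were at least 2-fold higher and 5 lower than in the untreated one, against 19.5% of all genes either way, with a median log2 ratio of 0.01. Fst was 30.7 CPM against 2.85 CPM (3.43 [3.28, 3.58]), Ltbp3, which also anchors latent TGF-beta, 50.4 against 8.25 CPM (2.61), and the follistatin-like gene Fstl1 1.90 against 0.355 CPM (2.42). Id3 had 1.16 CPM against 81.5 CPM (-6.13 [-6.36, -5.91]) and Id1 3.58 against 96.6 CPM (-4.75). The Id3 difference was also present in mature DC-like cells, with 3.06 CPM in Ndrg2-KO, 32.9 CPM in VD3 stimulated and 118 CPM in untreated cultures. Thbs1, whose product can activate latent TGF-beta, was 127 CPM in mature Ndrg2-KO cells and 2.51 CPM in mature untreated ones (5.66).

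In the wounds, the 9 genes fell to different cell types. The 13 clusters held neutrophil-like cells (clusters 0 and 1), fibroblast-like cells (3), macrophage-like cells (4, led by Il10 and Stab1, and 7, led by Cd209 genes and Lyve1), monocyte-like cells (5) and small erythroid-, dendritic cell- and endothelial-like clusters. Cluster 2, with 1221 cells and Mmp12, Mmp13 and Arg1 in the lead, clusters 6 (granzymes and Il17a), 8 (Cfd and Crabp1) and 9 (keratin genes beside T cell markers) stayed unnamed. Fibroblast-like cells made up 23.4% of the control DC wound, 7.66% of the Ndrg2-KO DC wound and 8.52% of the blank wound, and neutrophil-like cells 23.4%, 50.9% and 45.5%. These shares move with the level of a gene over a whole wound, so the wounds were compared within cell types.

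Tgfb2, Tgfb3, Tgfbr2, Tgfbr3 and Ltbp1 lay mostly in the fibroblast-like cells. Fibroblast-like cells held 72.7% of the wounds' Tgfb2 UMIs, 64.9% of Tgfb3, 74.3% of Tgfbr2, 89.1% of Tgfbr3 and 89.8% of Ltbp1. In the control, Ndrg2-KO and blank wounds their Tgfbr2 level was 607, 674 and 620 CPM, their Tgfbr3 level 282, 234 and 331 CPM, and their Ltbp1 level 71.8, 75.6 and 105 CPM. Most of the remaining Tgfb2 and Tgfb3 lay in cluster 8, with 25.3% and 21.5% of the UMIs, where Tgfb2 was 75.4, 131 and 90.5 CPM. Fibroblast-like cells had higher levels than macrophage-like cells in all 3 wounds for 6 members, these 5 and Inhba, and lower levels for 2, Tgfb1 and Gdf15.

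Tgfb1 lay mostly with the leukocytes. It was 25.9, 27.5 and 24.5 CPM in fibroblast-like cells of the control, Ndrg2-KO and blank wounds, but 337, 378 and 343 CPM in monocyte-like cells, 262, 327 and 295 CPM in macrophage-like cluster 4 and 239, 295 and 283 CPM in cluster 2. The granzyme-led cluster 6 had 285, 251 and 361 CPM. Macrophage-like cluster 7 had 290, 281 and 260 CPM. Neutrophil-like cells had 216, 133 and 201 CPM in cluster 0 and 270, 189 and 253 CPM in cluster 1. In each wound monocyte-like cells were above cluster 4 and cluster 4 above cluster 2, while the place of cluster 6 changed between wounds. Tgfbr1 was spread more widely, with 40.7, 30.6 and 35.6 CPM in fibroblast-like cells and 73.8, 77.2 and 120 CPM in neutrophil-like cluster 1. Endothelial-like cells, a small cluster of 56 cells, had Tgfbr2 at 169, 155 and 278 CPM and Tgfbr3 at 107, 71.0 and 97.7 CPM. Their Tgfb1, outside the leukocytes, was 185, 192 and 201 CPM.

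**Figure D2:**
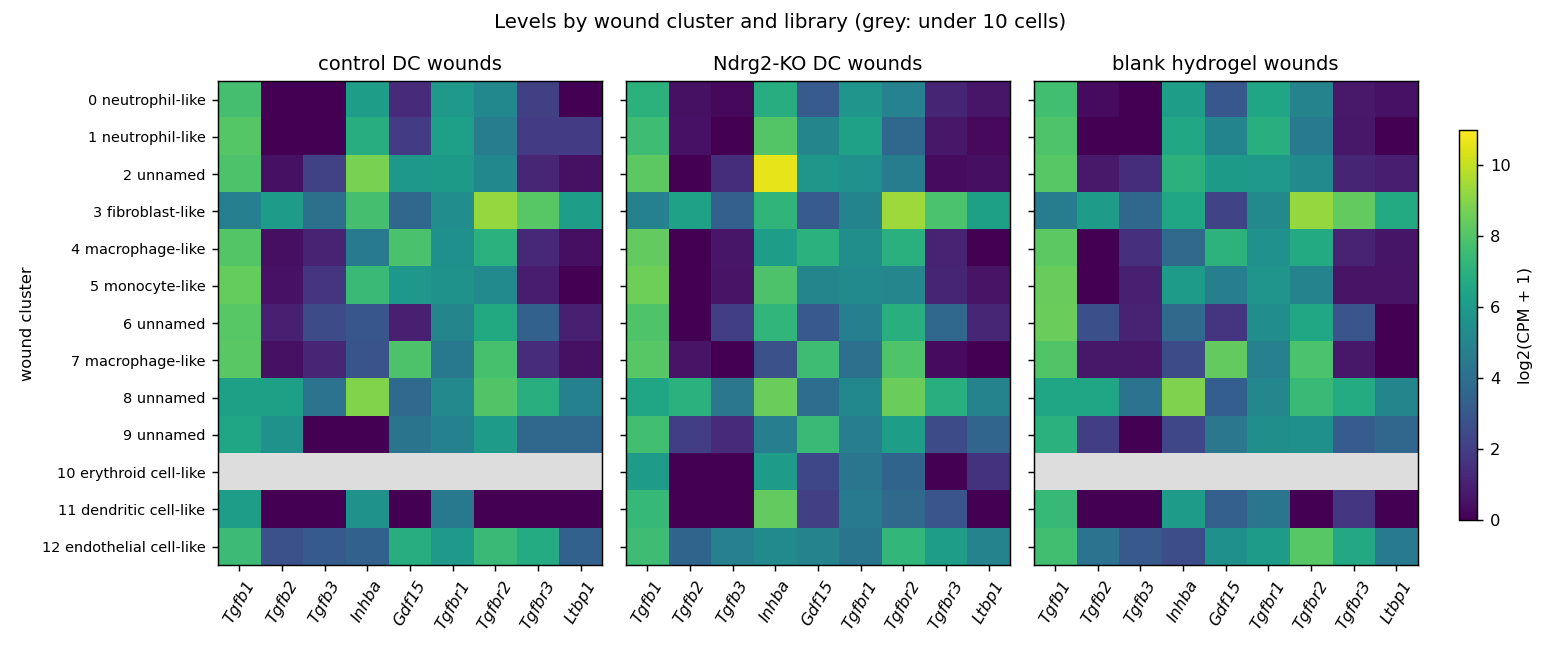
Levels of the 9 genes in the 13 wound clusters of each of the 3 wounds, as log2(CPM + 1), with grey for sums under 10 cells. The fibroblast-like cluster is high for Tgfb2, Tgfb3, Tgfbr2, Tgfbr3 and Ltbp1 in all 3 wounds, the leukocyte clusters for Tgfb1, clusters 2 and 8 for Inhba and the macrophage-like clusters for Gdf15.

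Gdf15 was highest in macrophage-like cells, with 30.9% of its wound UMIs in cluster 4 and 31.7% in cluster 7. Cluster 4 had 229, 130 and 137 CPM and cluster 7 had 244, 193 and 324 CPM in the control, Ndrg2-KO and blank wounds. Without the 5 cells with the most Gdf15 UMIs, these levels were 135, 108 and 108 CPM in cluster 4 and 145, 144 and 179 CPM in cluster 7. Cluster 2 had 58.0, 54.8 and 61.9 CPM. Endothelial-like cells had 114, 28.9 and 45.1 CPM, but 5 of their 27 control cells held 58 of the 60 UMIs of that wound, 40 of them in 1 cell. Fibroblast-like cells had 12, 7.94 and 3.83 CPM (170, 93 and 31 UMIs).

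Inhba spanned the widest range of the 9 genes over the 3 whole wounds, with a log2 ratio of 1.83 between the Ndrg2-KO and blank wounds. It was counted at 186 CPM [181, 191] with control DCs, 378 CPM [373, 384] with Ndrg2-KO DCs and 106 CPM [103, 110] with a blank hydrogel. At equal depth, 6.14% [5.11, 7.30] of control, 12.6% [11.7, 13.5] of Ndrg2-KO and 4.43% [3.76, 5.19] of blank wound cells had an Inhba UMI. The Ndrg2-KO wound was highest and the blank wound lowest in both measures, and 50.3% of the Inhba UMIs of the 3 wounds together lay in cluster 2. In the control, Ndrg2-KO and blank wounds, cluster 2 held 19.0%, 65.5% and 20.8% of each wound's Inhba UMIs. Fibroblast-like cells held 54.6%, 9.26% and 19.0%, and cluster 8 held 15.0%, 5.95% and 38.1%. Without drawing cells down, the shares were 18.8%, 25.2% and 14.3%, and the Ndrg2-KO share was 1.34 times that of the control wound in place of 2.05 times. The log2 ratio of the Ndrg2-KO to the control wound was 1.02, and 0.97 with all deposited barcodes.

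In cluster 2 Inhba had 441 CPM in the control wound (1050 UMIs in 161 cells), 1527 CPM in the Ndrg2-KO wound (12198 UMIs in 681 cells) and 135 CPM in the blank wound (770 UMIs in 379 cells). The log2 ratio to the control wound was 1.79 [1.70, 1.88] with Ndrg2-KO DCs and -1.71 [-1.85, -1.58] with a blank hydrogel. The share of cluster 2 cells with an Inhba UMI at equal depth had the same order, with 24.2%, 45% and 7.92%. Macrophage-like cluster 7, which was deeper (a median of 16928 UMIs per cell against 11676 in cluster 2), had an Inhba UMI in 0.668% [0.138, 1.94] of its cells over the 3 wounds. The 5 cells with the most Inhba UMIs held 38.1% of the cluster's Inhba in the control wound, 9.44% in the Ndrg2-KO wound and 30.0% in the blank wound, and without them the log2 ratios were 2.25 and -1.63. They were 5 of 161, 681 and 379 cells, a larger part of the control cells, so the move to 2.25 cannot be read as a larger difference. Of the genes that led the cluster, Mmp13 had the order of Inhba, with 189, 1026 and 92.4 CPM, while Mmp12 was at 5036, 5036 and 2070 CPM and Arg1 at 1890, 4457 and 3013 CPM. When clusters were cut at a resolution of 1.0, cells of cluster 2 lay mainly in a part led by Nos2, Mmp13 and Arg1 (11, 294 and 42 cells), with Inhba at 1006, 2464 and 197 CPM, and in another part (151, 390 and 340 cells) at 418, 944 and 129 CPM, so that the wounds differed both in the mix of these parts and in the level within each. No other member of cluster 2 with enough UMIs differed by 2-fold, and 1 of 5 members did so in either comparison, against 8.07% of all genes for Ndrg2-KO and 3.38% for blank against control.

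**Figure D3:**
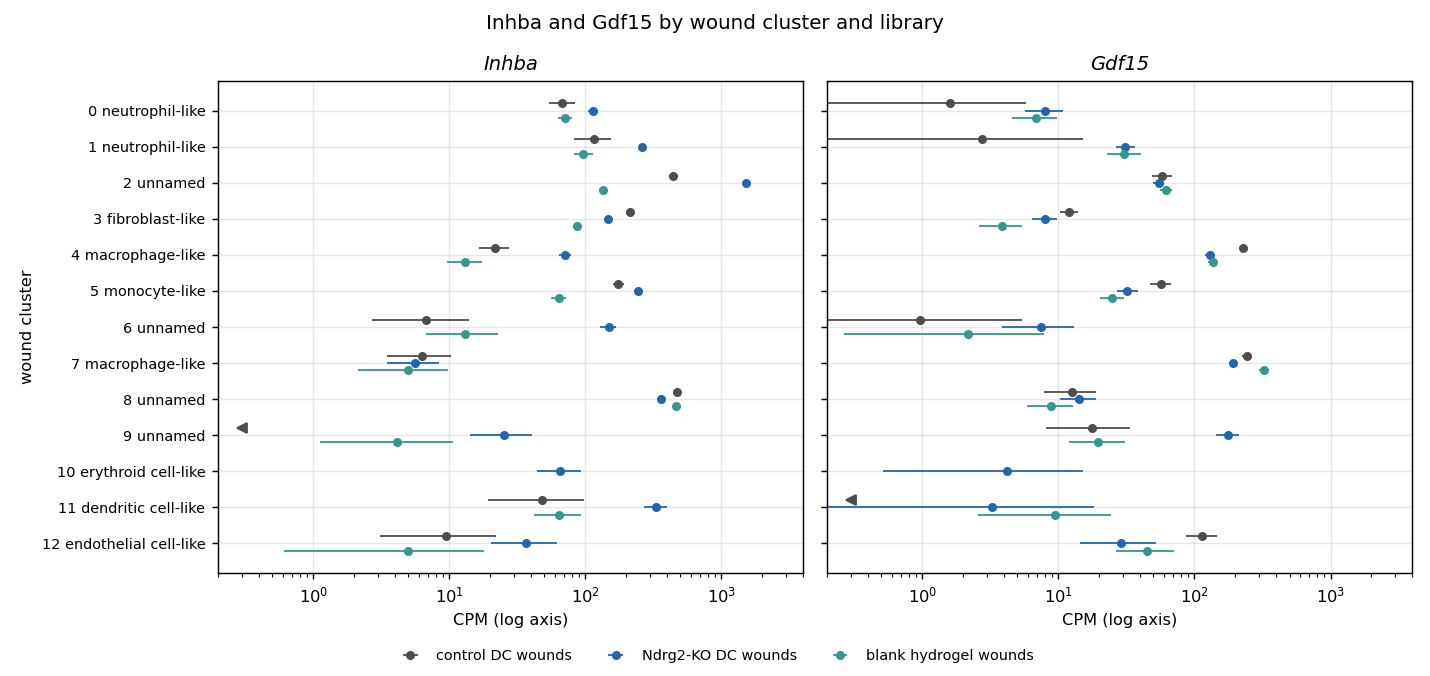
Levels of Inhba and Gdf15 in the wound clusters of each library, in CPM on a log axis, with bars for 95% Poisson intervals and triangles for 0 UMIs. Inhba in cluster 2 stands at 441, 1527 and 135 CPM in the control, Ndrg2-KO and blank wounds, whereas Gdf15 in cluster 2 stands at 58.0, 54.8 and 61.9 CPM.

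Fibroblast-like cells held the most Inhba UMIs of the control wound. Their Inhba level was highest there, with 213 CPM (3020 UMIs) against 147 CPM with Ndrg2-KO DCs (1724 UMIs) and 86.8 CPM with a blank hydrogel (703 UMIs). The log2 ratios to the control wound were -0.53 [-0.62, -0.45] and -1.30 [-1.42, -1.18], and the blank value was -0.37 when clusters were cut at a resolution of 1.0 and -0.36 when the members were left among the variable genes. At that resolution the largest fibroblast-like cluster had 234, 273 and 185 CPM, with the Ndrg2-KO wound highest, a small one (14, 40 and 17 cells) had 565, 217 and 266 CPM, with the control wound highest, and a further fibroblast-like cluster with 178 of its 181 cells from the Ndrg2-KO wound had 46.7 CPM there. In these cells 0 of 9 members differed by 2-fold between the Ndrg2-KO and control wounds, against 5.30% of all genes, and 2 of 9 between the blank and control wounds (Inhba and Gdf15, both lower), against 2.66%. Gdf15 had a log2 ratio of -0.60 [-0.98, -0.22] with Ndrg2-KO DCs, which was 0.21 without the 5 cells with the most Gdf15 UMIs, and of -1.65 [-2.25, -1.09] with a blank hydrogel. Tgfb3 was 15.5, 9.48 and 12.2 CPM, a log2 ratio of -0.71 [-1.05, -0.37] with Ndrg2-KO DCs, but 15.1, 14.1 and 13.6 CPM in the largest fibroblast-like cluster at a resolution of 1.0 and 8.86 CPM in the cluster mostly from the Ndrg2-KO wound. The other members of the fibroblast-like cells lay between -0.41 (Tgfbr1) and 0.25 (Tgfb2) with Ndrg2-KO DCs and between -0.20 (Tgfbr1) and 0.55 (Ltbp1) with a blank hydrogel.

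Cluster 8 had Inhba at 475, 357 and 463 CPM in the control, Ndrg2-KO and blank wounds, log2 ratios of -0.41 and -0.04. Without the 5 cells with the most Inhba UMIs it had 246, 187 and 280 CPM, and cluster 2 had 273, 1383 and 94.3 CPM.

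In macrophage-like cells Inhba differed between their clusters. Cluster 4 had 21.5, 70.5 and 13.1 CPM in the control, Ndrg2-KO and blank wounds, while cluster 7 had 6.27, 5.57 and 4.95 CPM. Over both, the log2 ratio of Ndrg2-KO to control was 1.55 [1.19, 1.93], and 5 cells held 88.3% of the control Inhba of cluster 4 and 28.1% of that of the Ndrg2-KO wound. Without the top 5 cells this ratio was 3.43, and that of blank to control moved from -0.45 [-0.98, 0.07] to 0.64. The 5 cells were a larger part of the 396 control cells than of the 708 Ndrg2-KO or 459 blank cells, so these moves cannot be read as larger differences. With Ndrg2-KO DCs 1 of 5 members differed by 2-fold (Inhba), against 4.08% of all genes, and with a blank hydrogel 0 of 5, against 2.34%.

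Monocyte-like cells had Inhba at 175, 243 and 63.8 CPM, log2 ratios to the control of 0.47 [0.30, 0.64] and -1.46 [-1.69, -1.23]. The top 5 cells held 70.6% of this Inhba in the control wound, and without them the ratios were 1.03 and -0.21. They were 5 of 196 control, 415 Ndrg2-KO and 391 blank cells, so a larger part of the control cells was left out. At a resolution of 1.0 the Ndrg2-KO ratio was -0.40. Gdf15 was 56.8, 32.2 and 24.8 CPM, a log2 ratio of blank to control of -1.19 [-1.58, -0.81] that was -0.25 without its top 5 cells. Hence 0 of 5 members differed with Ndrg2-KO DCs, against 2.97% of all genes, and the 2 of 5 that differed with a blank hydrogel, against 2.76%, rest on few cells.

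Neutrophil-like cells showed Inhba and Gdf15 both higher in the Ndrg2-KO than in the control wound. Inhba was 67.7, 114 and 71.0 CPM in cluster 0 and 115, 263 and 96.9 CPM in cluster 1, and over both the log2 ratio was 1.24 [0.97, 1.51] with Ndrg2-KO DCs (1801 against 127 UMIs) and -0.00 [-0.29, 0.29] with a blank hydrogel. Gdf15 was 1.59, 7.96 and 6.82 CPM in cluster 0 and 2.73, 31.1 and 30.6 CPM in cluster 1, but the control level rested on 3 UMIs, so that the log2 ratios of 3.36 [1.79, 5.65] and 2.85 [1.25, 5.16] are wide. In cluster 1, 5 cells held 93 of 144 UMIs in the Ndrg2-KO and 44 of 49 in the blank wound, and without them the levels were 11 and 3.13 CPM. With Ndrg2-KO DCs 2 of 5 members differed by 2-fold, against 8.53% of all genes, and with a blank hydrogel 1 of 5 (Gdf15), against 8.83%.

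The part of free RNA in the Inhba counts outside cluster 2 was not tested. In the Ndrg2-KO wound, Inhba UMIs per UMI of Mmp12, a leading gene of cluster 2, were 0.303 in that cluster. They were 4.04 and 10.5 in neutrophil-like clusters 0 and 1, 2.66 in monocyte-like cluster 5, and 0.675 and 0.234 in macrophage-like clusters 4 and 7. In cluster 6, 92.8% of the 237 Inhba UMIs of the Ndrg2-KO wound came from 5 of 272 cells. The dendritic cell-like cluster had 47.8, 330 and 63.9 CPM of Inhba in 14, 23 and 32 cells, and 5 cells held all 101 UMIs of the Ndrg2-KO wound.

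**Figure D4:**
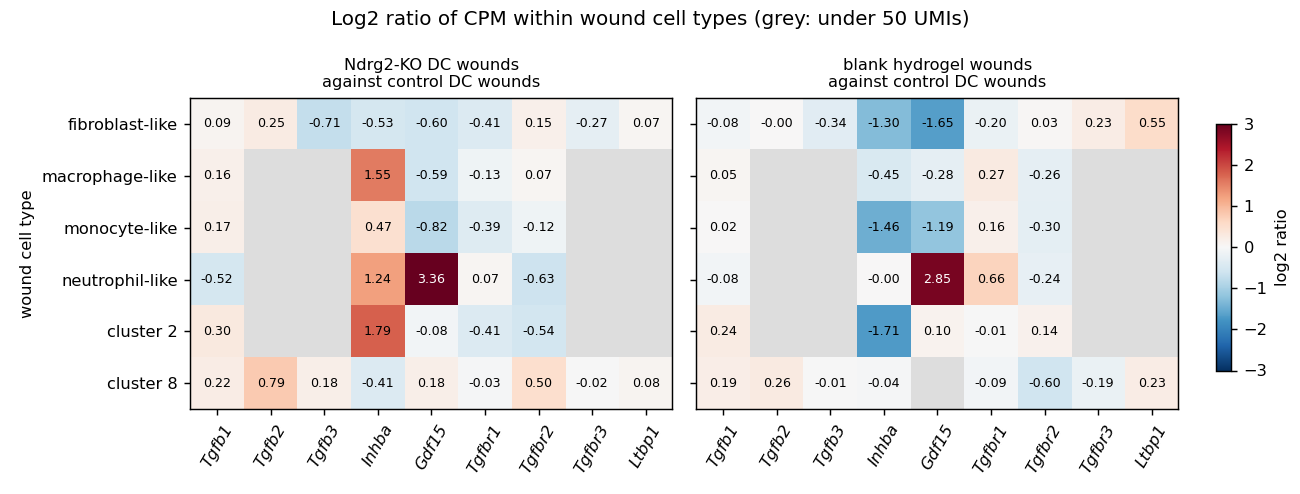
Log2 ratios of the 9 genes between the Ndrg2-KO and control wounds and between the blank and control wounds, within 6 cell types or clusters, with grey for genes under 50 UMIs and colours that end at a log2 ratio of 3 either way. Inhba in cluster 2 stands at 1.79 with Ndrg2-KO DCs and at -1.71 with a blank hydrogel, and in fibroblast-like cells at -0.53 and -1.30.

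Over whole wounds, the fibroblast members were lower in both other wounds than in the control wound, where fibroblast-like cells were most frequent. The log2 ratios of Ndrg2-KO and blank to control were -1.16 and -0.72 for Tgfbr3, -1.15 and -0.88 for Tgfb3, -0.84 and -0.37 for Ltbp1, -0.58 and -0.79 for Tgfbr2 and -0.44 and -0.63 for Tgfb2. As means over cells, every cell weighing the same, they were -1.84 and -1.23 for Tgfbr3, -1.02 and -1.04 for Tgfbr2 and -1.07 and -1.23 for Tgfb2, while this weighting moved the median of all genes by -0.35 and -0.24. Within fibroblast-like cells the values for Tgfbr2 were 0.15 and 0.03 and for Tgfbr3 -0.27 and 0.23. In these cells Tgfb3 stayed lower than in the control wound, with 15.5, 9.48 and 12.2 CPM in the control, Ndrg2-KO and blank wounds. Ltbp1 had 71.8, 75.6 and 105 CPM there and Tgfb2 64.5, 76.9 and 64.4 CPM. Tgfb1, the leukocyte member, was higher over whole wounds by 0.49 and 0.51, against 0.09 and -0.08 in fibroblast-like and 0.16 and 0.05 in macrophage-like cells. In neutrophil-like cells it went the other way with Ndrg2-KO DCs, at -0.52.

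Of the other pathway genes, 54 of 62 had enough UMIs in fibroblast-like cells. With Ndrg2-KO DCs 1 was at least 2-fold higher and 4 lower than in the control wound, against 5.30% of all genes either way, with a median log2 ratio of -0.14, and with a blank hydrogel none differed. The most abundant of the lower genes was Postn, the gene of the matrix protein periostin, at 1681 CPM against 3864 CPM (-1.20 [-1.22, -1.18]), which was not compared within the fibroblast-like clusters of resolution 1.0. Fst, named because its product binds activin, was 754 CPM with Ndrg2-KO, 692 CPM with control DCs and 741 CPM with a blank hydrogel. Cluster 2 held the most Inhba UMIs in the Ndrg2-KO wound, but not in the control or blank wound. In this cluster 37 pathway genes had a median log2 ratio of -0.03 with Ndrg2-KO DCs. Of these 37 genes, 4 were higher and 3 lower, against 8.07% of all genes either way. The higher ones were Id3 with 39.3 against 4.20 CPM (3.23 [2.33, 4.30], 314 and 10 UMIs), Id1 with 17.6 against 2.52 CPM, Fst with 14.1 against 1.68 CPM (113 and 4 UMIs) and Itgb8 with 5.51 against 2.52 CPM, the last 3 being named after their values were seen because they were few. Id3 was also higher in the Ndrg2-KO wound in monocyte-like cells, at 79.2 against 37.9 CPM, and in neutrophil-like cells, at 23.9 against 8.63 CPM (14 UMIs in the control).

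The genes most like a member in level were found by Pearson's r of log2(CPM + 1) over 34 sums of a wound cluster in 1 library, or 31 sums of the DC cultures, each of at least 20 cells. The sums share libraries and cell types, and r is a description. In the wounds Gdf15 ran closest to Stab1, a scavenger receptor gene of macrophages (0.90), and Inhba to Lrrk2 (0.83), Nos2 (0.74) and Hp (0.74). Tgfb2 was closest to Sorcs2 (0.97), Ltbp1 to Gpc4, Evc2 and Dkk3 (0.96 each), Tgfbr3 to Itih5, Ppic and Pdgfd (0.95 each) and Tgfb1 to the chemokine receptor gene Cxcr4 (0.91). In the DC cultures Gdf15 was closest to Gm38832 (0.82), Rufy4 (0.82) and Cyp24a1 (0.81), the last of which breaks down vitamin D, and Tgfb1 to Fli1, Lair1 and Ly6e (0.92 each).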

How the data were processed

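The authors made the deposited UMI counts with Cell Ranger, whose version in the file headers was 3.1.0 for DCs and 6.0.0 for wounds. The submitters' processing notes list mm9 and Seurat 3.1.1, while the methods name mm10. No counts were normalized before deposit, and the antibody rows of each file were left out. Of the deposited barcodes, 35083 passed the filter, with 29675507 to 143627482 UMIs per library. The 9 genes and the pathway and marker lists were chosen with earlier results of these data known. Counts were summed per library and cell type and scaled to 1000000. Clustering used Seurat 5.3.0 in R 4.3.3 (2000 variable genes without members and pathway genes, 15 components, resolution 0.5). A cluster was named where at least 3 markers of a type had 50 CPM and 2-fold excess and no other type led. Intervals came from SciPy 1.17.1 and doublet scores from Scanpy 1.11.5. Of the pathway genes, those at least 2-fold different with at least 200 UMIs in 1 sum were named, at most 5 per comparison and the largest ratios first. Gene positions are those of GENCODE on GRCm38. The interval code was checked on simulated counts. Comparisons with 1 library per group carry no test. Alternatives covered cell filters, doublets, scaling, weighting, clustering and drawing depth. All per-sample columns were used.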

Additional observations from a re-analysis of the deposited data

Results flagged for a closer look

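A result was taken for a closer look where a gene differed between wounds in opposite directions in different cell types, each by at least 0.5 on the log2 scale and with a counting interval off 0. With 1 library per wound, the difference between cell types was not tested. Between the Ndrg2-KO and the control wound, Inhba ran from 4.45 in cluster 6 to -0.53 in fibroblast-like cells, with 5 cell types higher and 1 lower. The fibroblast-like value was -0.36 at a resolution of 1.0, short of 0.5. In cluster 6, 5 of 272 cells held 92.8% of the Ndrg2-KO UMIs. The same contrast gave Gdf15 from 3.36 in neutrophil-like cells, with 3 UMIs in the control, to -1.98 in endothelial-like cells, where 5 cells held 58 of the 60 control UMIs and 4 cells the 11 Ndrg2-KO UMIs. It gave Tgfbr2 from 0.50 in cluster 8 to -0.63 in neutrophil-like cells and Tgfb1 from 1.26 in dendritic cell-like to -0.52 in neutrophil-like cells. The dendritic cell-like value rests on 14 control and 23 Ndrg2-KO cells, and at a resolution of 1.0 the dendritic cell-like cluster (43 and 91 cells) had 283 and 255 CPM of Tgfb1, so that the higher Ndrg2-KO value was not kept there. Tgfb1 was also higher in the Ndrg2-KO wound in cluster 9, at 204 CPM (130 UMIs in 42 cells) against 90.5 CPM (46 UMIs in 23 cells). Between the blank and the control wound, Gdf15 ran from 2.85 in neutrophil-like to -1.65 in fibroblast-like cells, and Tgfbr2 from 0.72 in endothelial-like cells to -0.60 in cluster 8.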

How the results depend on the processing

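No paired analysis was possible because each group has 1 library. Of 818 log2 ratios of a member under an alternative, 652 stayed within the main counting interval, 166 moved out of it and 0 of those past 2-fold changed sign. Of 136 counts and shares under an alternative, 14 moved. The members past 2-fold between Ndrg2-KO and untreated DCs were 2 in place of 1 under 5% mitochondrial UMIs, with median-ratio scaling and as a mean over cells. In granulocyte- or monocyte-like cells they were 1 in place of 3 as a mean over cells. In mature DC-like cells of the Ndrg2-KO and VD3 cultures they were 2 in place of 4 under 5% mitochondrial UMIs and with at least 200 UMIs. With at least 200 UMIs they were 1 in place of 2 in neutrophil-like cells with Ndrg2-KO DCs and 0 in place of 1 with a blank hydrogel. With a blank hydrogel they were 1 in place of 2 in fibroblast-like and in monocyte-like cells, both at a resolution of 1.0 and with the members among the variable genes. Without drawing cells down, the share of cells with a Gdf15 UMI was 5.88 times as large with VD3 in place of 18.3, and with an Inhba UMI in the Ndrg2-KO wound 1.34 times in place of 2.05. The cause was not tested. The median of all genes moved by -0.20 with median-ratio scaling in mature Ndrg2-KO against untreated cells, and by -0.35 as a mean over cells in the whole Ndrg2-KO against the control wound.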

Other observations

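Cluster 9, with keratin genes and T cell markers, had Gdf15 at 17.7, 175 and 19.7 CPM in the control, Ndrg2-KO and blank wounds, in 23, 42 and 65 cells. All 112 UMIs of the Ndrg2-KO wound lay in 3 cells, 83 of them in 1 cell.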
